A study of Homo sapiens with 2 samples.

Results

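Collagen genes were taken as all gene symbols that consist of COL, a number, A and a further number. They numbered 44 of the 24462 symbols counted in a pair of RNA sequencing libraries. One library was made from neural precursor cells (NPC) that had been derived from the H9 line on a feeder layer of MS5 cells, and 1 library from undifferentiated H9 human embryonic stem cells (hESC). MS5 is a stromal line of mouse origin, and H9 is an established human line that can form all tissues of the body. The labels give no other treatment and do not say whether feeder cells were removed before RNA was taken. The NPC library held 24065750 counted reads and the hESC library 19686728. Since each condition was represented by 1 library, differences are described without tests or p-values.

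Collagens are secreted or membrane-bound proteins whose chains wind around each other in a rope-like helix. Fibrillar types build the tensile fibres of connective tissue, and type IV builds the sheet of the basement membrane. FACIT collagens (fibril-associated collagens with interrupted helices) sit on the surface of fibres, and transmembrane collagens span the plasma membrane. Chains of a type assemble in set combinations, so that the supply of partner chains bears on which molecules a cell can make. In the developing brain, collagens are known mainly from the pial basement membrane, the meninges and blood vessels. The counts come from bulk RNA, in which more cells that express a gene and more RNA per cell cannot be told apart.

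Levels are given as CPM, the read count scaled by the TMM-adjusted size of its library, and ratios as NPC over hESC. A gene with at least 5 CPM in either library was called measured, which corresponds to 136 reads in the NPC and 86.9 reads in the hESC library. Such a gene was called higher or lower only if its whole 95% counting interval lay at or beyond a 2-fold difference. The intervals cover counting error only and hold no variation between cultures.

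Most collagen genes with a clear difference were higher in the NPC library. The type IV genes COL4A5 and COL4A6 were 22.1-fold (95% interval 20.4 to 24.01) and 14.3-fold (13.2 to 15.6) higher, while COL4A1 and COL4A2 differed by less than 2-fold. Of the fibrillar genes 8 of 11 were higher, from COL3A1 down to COL11A2, and none was lower. Of the FACIT genes 3 were higher and 1 lower among 7 measured, and of the transmembrane genes none was higher and 2 were lower among 3 measured. At 5 CPM or more in both libraries, 5 of 7 fibrillar, 2 of 4 type IV and 1 of 5 FACIT genes were higher, and 1 of 5 FACIT and 1 of 2 transmembrane genes were lower. Of the fibrillar genes COL3A1, COL5A3, COL11A2 and COL24A1 reached 5 CPM in the NPC library only. So did COL12A1, COL22A1, COL7A1 and COL8A1 of other classes, and none of these genes could have been called lower. COL10A1 and COL13A1 reached 5 CPM in the hESC library only and could not have been called higher. Collagen reads made up 0.481% of all reads in the NPC library (Wilson 95% interval 0.478 to 0.483) and 0.140% in the hESC library (0.139 to 0.142). These shares are of reads without TMM scaling. On the CPM scale used elsewhere the collagen sum was 4247 CPM in the NPC and 1588 CPM in the hESC library, a ratio of 2.67. Markers of stroma and fibroblasts, which are known as collagen producers, summed to 612 CPM in the NPC and 197 CPM in the hESC library. FBLN1, which did not pass the size rule, held 272 CPM and 161 CPM of these sums. Neural progenitor markers summed to more in the NPC library as well, at 1126 CPM against 630 CPM, while cartilage and neural crest markers summed to less. The part of any cell type in the collagen results was not tested.

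Of the 44 collagen genes, 33 were measured and 11 were below the filter in both libraries. Of the measured genes 16 were higher (48.5%), 4 were lower (12.1%) and 13 did not pass the size rule. Over all 13535 measured genes, 39.4% were called, 19.6% as higher and 19.8% as lower. Median log2 ratios were 1.27 for the measured collagen genes and -0.09 for all measured genes. Being at 5 CPM in a single library leaves a gene only 1 direction in which it can be called, which was the case for 8 collagen genes in the NPC and 2 in the hESC library. Among the 23 collagen genes at 5 CPM or more in both libraries, 9 were higher and 2 lower (39.1% and 8.70%), against 12.8% and 17.2% of the 10804 genes that met the same condition.

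**Figure D1:**
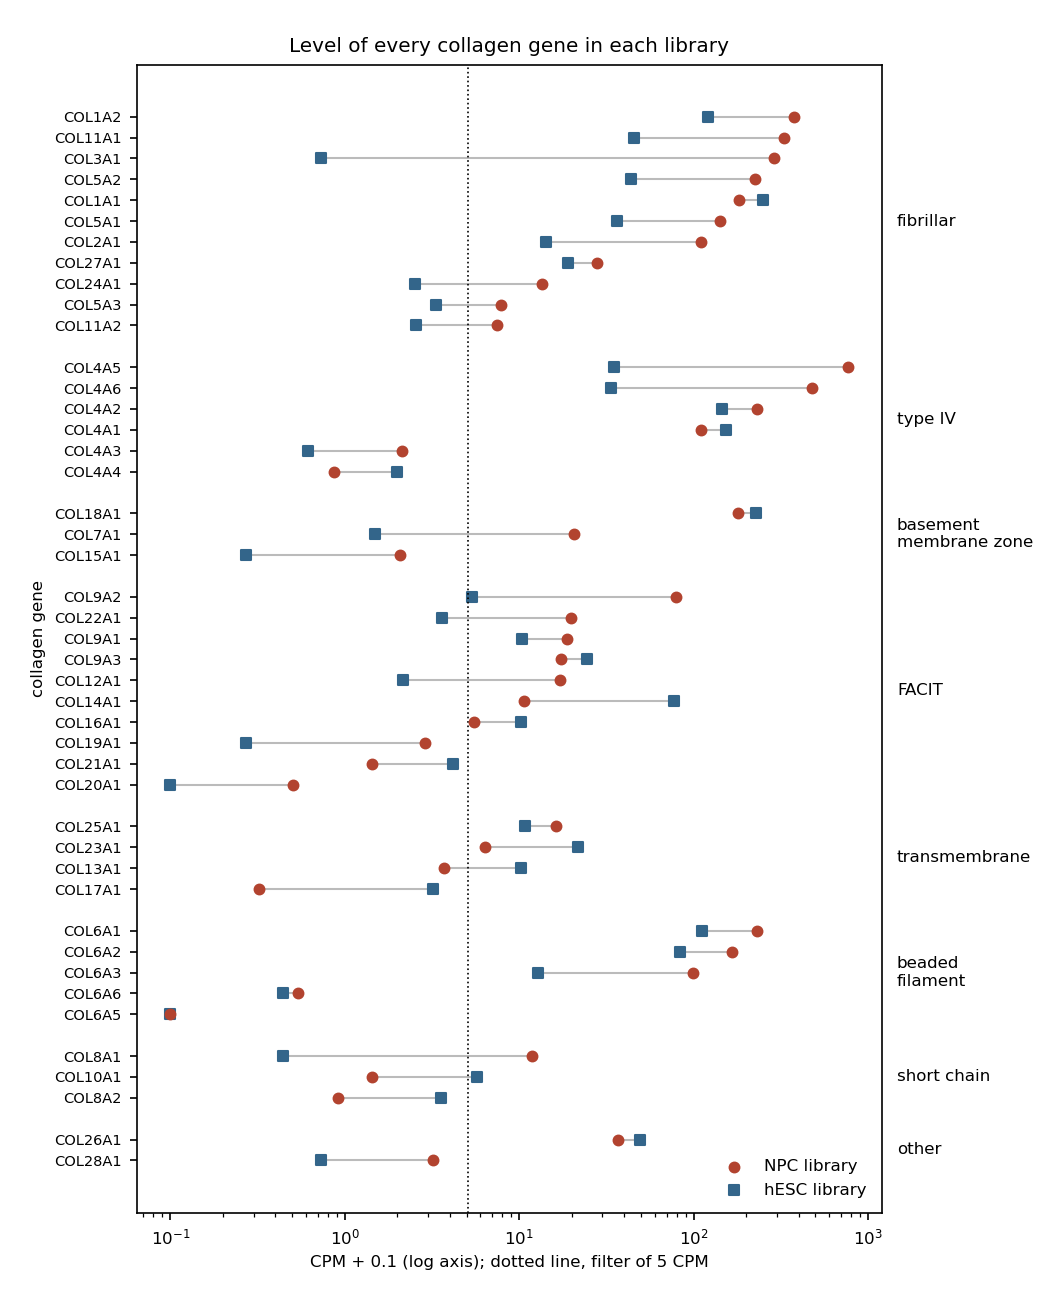
Level of each of the 44 collagen genes in the NPC library (circles) and the hESC library (squares), as CPM + 0.1 on a log axis, by structural class. COL4A5 and COL4A6 lie farthest to the right in the NPC library, at 769 and 478 CPM, and COL3A1 spans the widest gap.

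The type IV genes stand in head-to-head pairs, so the sequence between their starts is shown first. In RefSeq on GRCh38.p14, a later build than the hg19 named for the counts, COL4A1 and COL4A2 start 126 bases apart on chromosome 13 and run in opposite directions. COL4A6 and COL4A5 lie the same way on chromosome X, with 379 bases between the COL4A5 start and the outer COL4A6 start and 1415 bases to an inner COL4A6 start. The counts do not show which COL4A6 start was used. The whole gap of the first pair (chr13:110307158-110307283, strand of COL4A2), the 250 bases before COL4A5 (chrX:108439588-108439837, plus strand) and the 250 bases before the inner COL4A6 start (chrX:108438423-108438672, minus strand) read as follows, with motif matches on either strand in capitals. The GC box was searched as GGGCGG. The CAAT box was searched by the letters CCAAT. The TATA box was searched as TATAAA, and no matches of different motifs overlap in the printed sequences.
COL4A1-COL4A2: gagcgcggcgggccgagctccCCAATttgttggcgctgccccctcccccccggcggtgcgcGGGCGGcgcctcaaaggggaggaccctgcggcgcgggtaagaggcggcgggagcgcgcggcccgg
COL4A5: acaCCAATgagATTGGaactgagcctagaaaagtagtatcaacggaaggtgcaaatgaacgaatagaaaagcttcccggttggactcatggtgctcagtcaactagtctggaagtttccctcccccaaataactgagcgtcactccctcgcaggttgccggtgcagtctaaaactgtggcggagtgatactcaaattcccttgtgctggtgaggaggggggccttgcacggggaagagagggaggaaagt
COL4A6 inner start: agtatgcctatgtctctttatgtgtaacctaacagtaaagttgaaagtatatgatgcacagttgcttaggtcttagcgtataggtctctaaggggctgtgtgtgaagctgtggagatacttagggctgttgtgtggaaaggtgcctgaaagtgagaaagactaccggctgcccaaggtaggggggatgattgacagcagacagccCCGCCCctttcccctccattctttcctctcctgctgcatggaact

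The pairs differ in base composition. The 250 bases before COL4A1 and COL4A2 held 38 and 40 CpG dinucleotides, against a median of 11 over the 35116 starts in the table. These 2 windows share the 126 bases of the gap, whose 20 CpG count in both. The windows before COL4A5 and the outer COL4A6 start held 8 and 7, and the window before the inner COL4A6 start held 3. Those before COL4A3 and COL4A4, both below the filter in both libraries, held 17 and 20 and overlap in part as well. A GC box was found in the COL4A1-COL4A2 gap and before the inner COL4A6 start, and none before COL4A5 or the outer COL4A6 start. GC boxes numbered 2 before COL4A3 and 0 before COL4A4, and neither of these windows held a CAAT box. A CAAT box was also found in the COL4A1-COL4A2 gap. CAAT boxes numbered 2 before COL4A5 and 3 before the outer COL4A6 start, in windows that overlap and in part share the same letters. None of these windows held a TATA box. A GC box occurs in 42.6%, a CAAT box in 32.0% and a TATA box in 10.7% of all such windows, so the matches are a description of the letters only.

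Type IV chains form the sheet-like network of every basement membrane. COL4A5 had 20931 reads in the NPC library, against 605 in the hESC library, which is 769 CPM against 34.8 CPM. COL4A6 had 13010 reads (478 CPM) in the NPC and 581 reads (33.4 CPM) in the hESC library. Both genes of the pair on chromosome X were therefore far higher in the NPC library, with both intervals above 2-fold. Chains of these genes are known from the basement membranes of kidney, skin and smooth muscle, and COL4A5 is mutated in Alport syndrome.

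COL4A1 and COL4A2, whose chains make up the common form of the network, behaved otherwise. COL4A1 had 3004 reads (110.4 CPM) in the NPC and 2676 reads (154 CPM) in the hESC library, a ratio of 0.717 (0.681 to 0.756). COL4A2 had 6279 reads (231 CPM) in the NPC and 2532 reads (146 CPM) in the hESC library, a ratio of 1.58 (1.51 to 1.66). Neither passed the size rule. COL4A3 and COL4A4, the third head-to-head pair, were below the filter, with 55 and 21 reads in the NPC and 9 and 33 reads in the hESC library, and COL4A4 overlaps RHBDD1, which had 424 reads in the NPC and 425 in the hESC library.

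Per kilobase of the longest annotated transcript, the order of the chains turned over. COL4A5 and COL4A6 together held 78.3% of the summed type IV level per kilobase in the NPC library, against 18.3% in the hESC library. COL4A1 and COL4A2 held 21.6% in the NPC and 81.2% in the hESC library. With the longest coding sequence in place of the transcript, the share of COL4A5 and COL4A6 was 78.4% in the NPC and 18.3% in the hESC library. Of all 44 collagen genes, COL4A5 and COL4A6 ranked 1 and 2 by CPM per kilobase in the NPC library, at 119 and 70.9, and 14 and 15 in the hESC library, at 5.37 and 4.95.

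**Figure D2:**
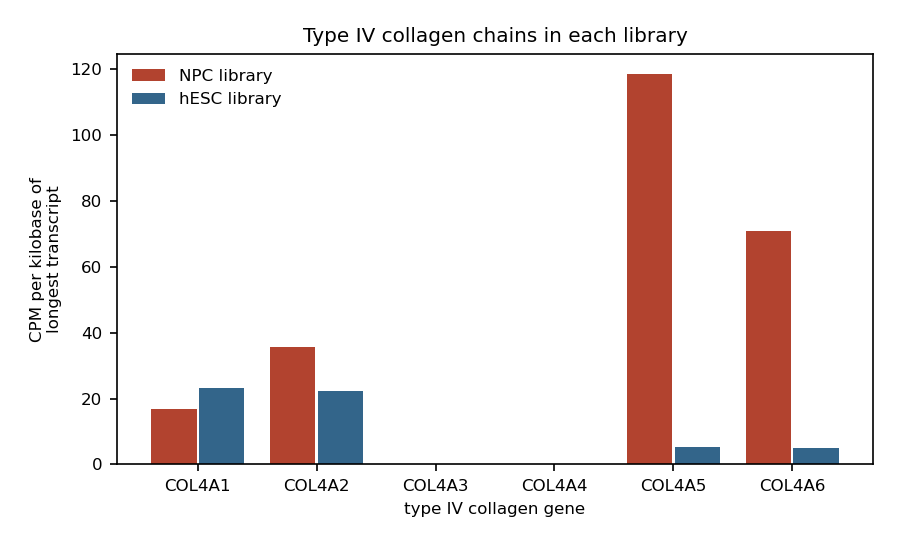
CPM per kilobase of the longest transcript (y axis, from 0) for the type IV genes in the NPC library (left bar) and the hESC library (right bar), 1 library each and no error bars. COL4A5 and COL4A6 stand at 119 and 70.9 in the NPC library, against 5.37 and 4.95 in the hESC library, while COL4A1 stands at 16.7 in the NPC and 23.3 in the hESC library and the COL4A3 and COL4A4 bars are too low to see.

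Other collagens of the basement membrane zone did not move together. COL18A1, whose product carries heparan sulfate and is the source of endostatin, had 4891 reads (179.8 CPM) in the NPC and 3957 reads (228 CPM) in the hESC library, a ratio of 0.790 (0.757 to 0.824) that fell short of the rule. Its log2 ratio of -0.34 was 0.02 with the library total as scale. Overlapping or antisense genes of COL18A1 had few reads, with at most 3.39% of its own in the NPC and 4.42% in the hESC library. COL7A1, which forms the anchoring fibrils of skin, had 559 reads in the NPC and 24 in the hESC library and was 14.6-fold higher (9.90 to 23.4). COL15A1, a relative of COL18A1, was below the filter with 54 reads in the NPC and 3 in the hESC library, a ratio of 9.95 (3.73 to 57.5).

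Fibrillar collagen genes were higher in 8 of 11 cases, and all 11 were measured. Of the 7 at 5 CPM in both libraries 5 were higher, and the other 4 could not have been called lower. COL3A1, a fibre-forming type of extensible tissues and vessel walls, had 7837 reads (288 CPM) in the NPC and 11 reads (0.633 CPM) in the hESC library. It was 435-fold higher (254 to 912), and its log2 ratio of 8.77 lay at the 99.8th percentile of all measured genes. COL2A1, the main collagen of cartilage that is also made in early neuroepithelium and notochord, had 2988 reads (109.8 CPM) in the NPC and 247 reads (14.2 CPM) in the hESC library and was 7.72-fold higher (6.79 to 8.84). COL11A1, a minor partner in type II fibres, had 8944 reads (329 CPM) in the NPC and 789 reads (45.4 CPM) in the hESC library and was 7.24-fold higher (6.73 to 7.80). These 3 genes had the largest ratios of the fibrillar class.

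The chains of type V, which control the diameter of type I fibres, were higher in part. COL5A2 was 5.13-fold higher (4.76 to 5.54), with 224 CPM in the NPC and 43.5 CPM in the hESC library. COL5A1 was 3.89-fold higher (3.57 to 4.24), with 141 CPM in the NPC and 36.2 CPM in the hESC library. COL5A3 reached 7.79 CPM in the NPC and 3.22 CPM in the hESC library, a ratio of 2.40 (1.79 to 3.31) that did not pass the rule. COL5A2 is the tail-to-tail neighbour of COL3A1, and the log2 ratios of the neighbours were 2.36 and 8.77.

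Type I collagen, the most widespread fibre-forming type, split by chain. COL1A2 had 10192 reads (375 CPM) in the NPC and 2115 reads (122 CPM) in the hESC library and was 3.08-fold higher (2.94 to 3.23). COL1A1 had 4975 reads in the NPC and 4339 reads in the hESC library, a ratio of 0.733 (0.703 to 0.763) that did not pass the rule. By CPM per kilobase COL1A1 ranked 12 of 44 in the NPC library, at 27.2, and 1 in the hESC library, at 37.1.

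The remaining fibrillar genes code for minor chains of fibres. COL24A1 was 5.53-fold higher (4.05 to 7.88), with 13.5 CPM in the NPC and 2.42 CPM in the hESC library. COL11A2 was 2.95-fold higher (2.13 to 4.23), with 7.35 CPM in the NPC and 2.47 CPM in the hESC library. Its call was lost when the trend of the ratio with transcript length was removed (log2 ratio 1.27, against 1.56), and its symbol also stood on 6 rows without reads. The handling of reads shared between copies of the locus is not known. COL27A1 had 27.8 CPM in the NPC and 19.0 CPM in the hESC library, a ratio of 1.46 (1.28 to 1.67), short of the rule.

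**Figure D3:**
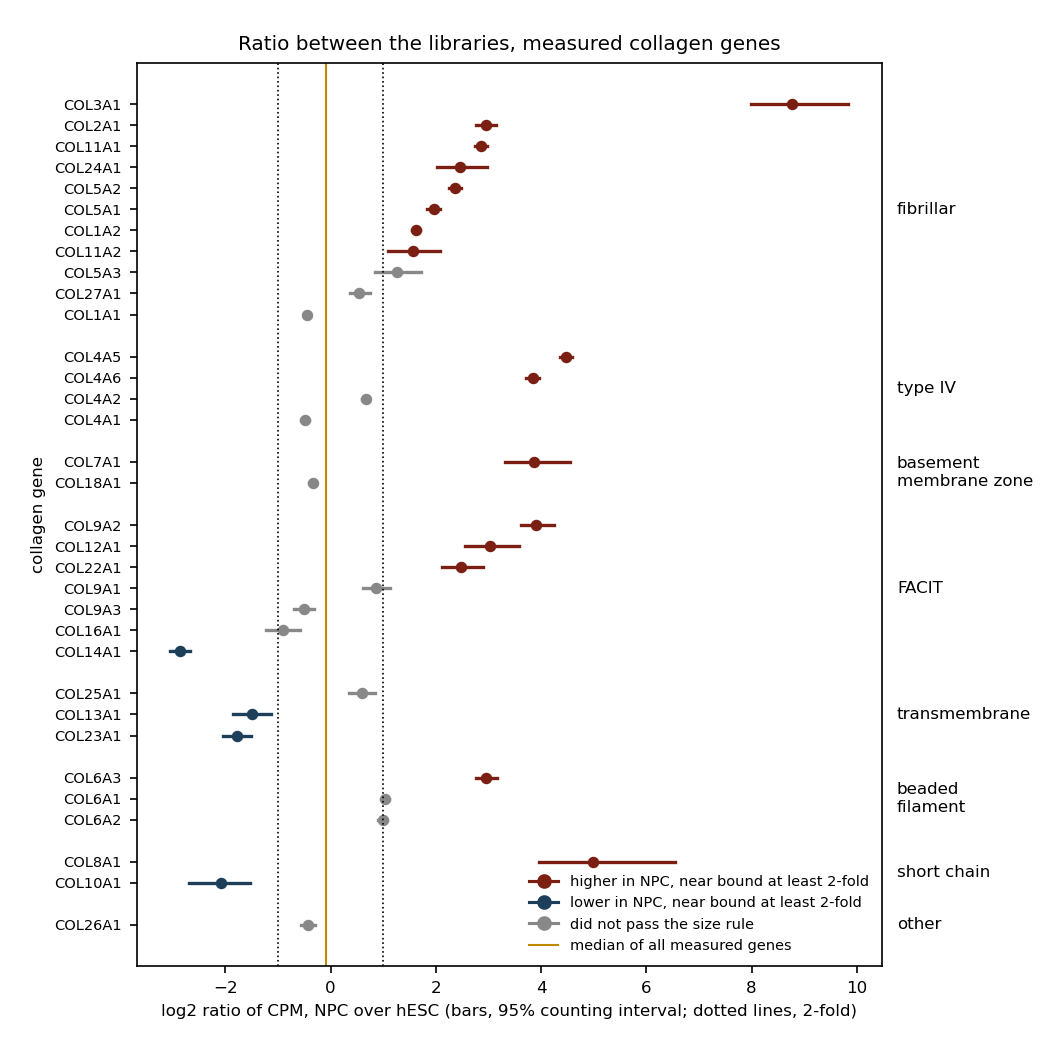
Log2 ratio of CPM, NPC over hESC, for the 33 measured collagen genes by class (points; bars are 95% counting intervals, colours give the call). The fibrillar points lie to the right of 0 except COL1A1 at -0.45, COL4A5 and COL4A6 stand apart from COL4A1 and COL4A2, and COL13A1 and COL23A1 lie left of the 2-fold line.

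FACIT genes went both ways. COL9A2, a chain of type IX on cartilage-like fibres, had 2154 reads (79.2 CPM) in the NPC and 91 reads (5.24 CPM) in the hESC library and was 15.05-fold higher (12.3 to 18.9). COL12A1, found on the type I fibres of tendon and fascia, had 465 reads in the NPC and 36 in the hESC library and was 8.15-fold higher (5.88 to 11.9). COL22A1, known from tissue junctions such as that of muscle and tendon, had 539 reads in the NPC and 61 in the hESC library and was 5.61-fold higher (4.33 to 7.48). COL14A1, a relative of COL12A1, had 289 reads (10.6 CPM) in the NPC and 1337 reads (76.9 CPM) in the hESC library and was 7.23-fold lower (6.37 to 8.25). COL12A1 and COL14A1, alike in domain structure, therefore differed in opposite directions.

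The partners of COL9A2 did not follow it. COL9A1 had 18.7 CPM in the NPC and 10.2 CPM in the hESC library, a ratio of 1.82 (1.53 to 2.18). COL9A3 had 17.2 CPM in the NPC and 24.5 CPM in the hESC library, a ratio of 0.703 (0.616 to 0.804), and it overlaps TCFL5, which had 708 reads in the NPC and 834 in the hESC library. COL16A1, at 5.44 CPM in the NPC and 10.1 CPM in the hESC library, fell short of the rule with a ratio of 0.538 (0.429 to 0.672). COL19A1, COL20A1 and COL21A1 were below the filter, with 76, 11 and 36 reads in the NPC and 3, 0 and 71 reads in the hESC library.

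No transmembrane collagen gene was higher. COL23A1 had 171 reads (6.29 CPM) in the NPC and 374 reads (21.5 CPM) in the hESC library and was 3.42-fold lower (2.85 to 4.13). COL13A1, which helps to organise the neuromuscular junction, had 98 reads (3.603 CPM) in the NPC and 176 reads (10.1 CPM) in the hESC library and was 2.80-fold lower (2.18 to 3.64). With the library total as scale COL13A1 was no longer called (log2 ratio -1.13, against -1.49). COL17A1, a hemidesmosome protein of skin, was below the filter with 6 reads in the NPC and 54 in the hESC library, a ratio of 0.0762 (0.0250 to 0.165). COL25A1, which is expressed in neurons and is a component of amyloid plaques, had 440 reads (16.2 CPM) in the NPC and 186 reads (10.7 CPM) in the hESC library, a ratio of 1.51 (1.27 to 1.80). As a class, the transmembrane genes summed to 26.3 CPM in the NPC and 45.4 CPM in the hESC library, and the FACIT genes to 173 CPM in the NPC and 137 CPM in the hESC library. The fibrillar sum was 1705 CPM in the NPC and 538 CPM in the hESC library, and the type IV sum 1592 CPM in the NPC and 370.3 CPM in the hESC library.

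Genes of type VI, which forms beaded filaments around cells, differed by unequal factors. COL6A3 had 2685 reads (98.7 CPM) in the NPC and 220 reads (12.7 CPM) in the hESC library and was 7.78-fold higher (6.79 to 8.99). COL6A1 and COL6A2, neighbours on the same strand, had ratios of 2.05 (1.95 to 2.16) and 1.99 (1.87 to 2.11), just short of the rule at the near bound. With the library total as scale both were called higher. COL6A6 had 12 reads in the NPC and 6 in the hESC library, and COL6A5 had none in either.

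Among the short-chain types, COL8A1 had 321 reads in the NPC and 6 in the hESC library and was 31.6-fold higher (15.5 to 93.9). COL8A2, its partner in the membrane beneath the corneal endothelium, was below the filter with 22 reads in the NPC and 60 in the hESC library, a ratio of 0.238 (0.137 to 0.388). COL10A1, a marker of hypertrophic cartilage, had 36 reads in the NPC and 98 in the hESC library and was 4.22-fold lower (2.88 to 6.43). It lies within NT5DC1, which had 367 reads in the NPC and 821 in the hESC library, and since the strand setting is unknown some of its counts may belong to that gene. With the library total as scale COL10A1 was below the filter. COL26A1, at 36.6 CPM in the NPC and 49.2 CPM in the hESC library, had a ratio of 0.744 (0.679 to 0.817) and was not called. COL28A1 was below the filter with 84 reads in the NPC and 11 in the hESC library.

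Ratios of partner chains within a library do not depend on library scaling. Per kilobase, COL1A2 stood at 2.30 times COL1A1 in the NPC library (2.22 to 2.38) and at 0.547 times in the hESC library (0.519 to 0.576). Type I molecules are usually assembled with more COL1A1 than COL1A2 chains, and COL1A1 RNA was in excess in the hESC library only. The ratio was 4.20 times as large in the NPC as in the hESC library (3.95 to 4.47 by Woolf's log odds interval), whatever the length used. COL4A2 stood at 2.13 times COL4A1 in the NPC and 0.964 times in the hESC library, and this is the pair that shares the short gap printed above.

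COL9A2 was 6.99 times COL9A1 in the NPC library (6.35 to 7.72) and 0.843 times in the hESC library (0.648 to 1.09, which includes 1). COL9A3 was 1.76 times COL9A1 in the NPC and 4.56 times in the hESC library. COL6A3 stood at 0.169 times COL6A1 in the NPC and 0.0445 times in the hESC library, while COL6A2 was 0.884 and 0.912 times COL6A1, a change between the libraries of 0.970 (0.897 to 1.05) whose interval includes no change. COL5A2 was 1.90 times COL5A1 in the NPC and 1.44 times in the hESC library. COL8A2 was 0.0837 times COL8A1 in the NPC and 12.2 times in the hESC library, where COL8A1 had 6 reads. COL11A2 was 0.0255 times COL11A1 in the NPC and 0.0622 times in the hESC library, a change between the libraries of 0.410 (0.293 to 0.575). In types I, IV, V, VI, VIII, IX and XI at least 1 pair of chains thus differed in balance between the libraries beyond counting error.

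**Figure D4:**
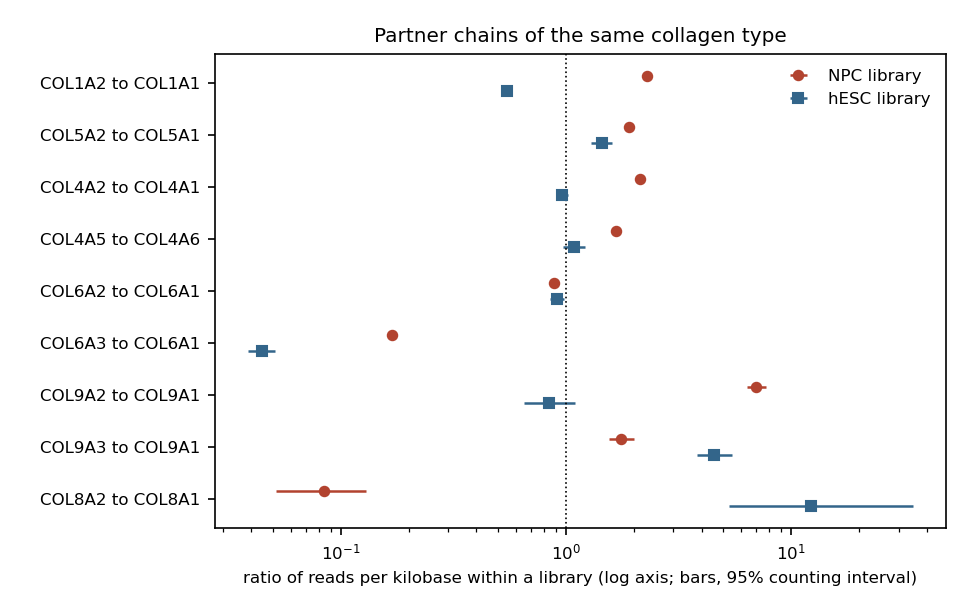
Ratio of reads per kilobase of a chain to that of its partner, within the NPC library (circles) and within the hESC library (squares), on a log axis with 95% counting intervals. COL1A2 to COL1A1 lies at 2.30 in the NPC and 0.547 in the hESC library, whereas COL6A2 to COL6A1 lies near 1 in both.

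Genes that modify and fold collagen were called in both directions. Of 13 measured hydroxylase and glycosyltransferase genes 2 were higher and 2 lower, and of 8 chaperone and export genes none was higher and 1 lower (2 higher with the library total as scale), against 19.6% higher and 19.8% lower over all measured genes. All of these genes reached 5 CPM in both libraries. The like shares over all genes that did so were 12.8% higher and 17.2% lower, against 15.4% in each direction in the hydroxylase and glycosyltransferase list. The median log2 ratios of these lists were 0.03 and 0.22. P4HB and P4HA1, subunits of prolyl 4-hydroxylase, had 265 and 115 CPM in the NPC and 334 and 103 CPM in the hESC library. SERPINH1, the collagen chaperone HSP47, had 277 CPM in the NPC and 426 CPM in the hESC library, a ratio below 2-fold. COLGALT2, which adds galactose to hydroxylysine, was 9.90-fold higher (8.25 to 12.1), with 68.0 CPM in the NPC and 6.85 CPM in the hESC library. P3H4 was 2.56-fold higher (2.27 to 2.89). The prolyl 3-hydroxylase gene P3H2 was 3.40-fold lower (3.12 to 3.71), CRTAP 2.33-fold lower (2.20 to 2.46), and CREB3L1, which activates Col1a1 in mouse bone, 4.55-fold lower (3.93 to 5.29).

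Procollagen proteases and their enhancers were called in both directions. BMP1, which cleaves the C-propeptide, had 49.8 CPM in the NPC and 5.64 CPM in the hESC library and was 8.79-fold higher (7.19 to 10.96). Its relative TLL1 was 9.38-fold higher (5.45 to 19.2), and ADAMTS3, an N-propeptide protease, 7.03-fold higher (5.83 to 8.62). ADAMTS2, of the same group, had 97 reads in the NPC and 151 in the hESC library, a ratio of 0.411 (0.315 to 0.533) that was not called. It was lower with the point ratio of 2-fold alone, with log2 of CPM + 1 and with the length trend removed. ADAMTS14 was below the filter, with 0 reads in the NPC and 28 in the hESC library, and TLL2 had a ratio of 1.78 (1.38 to 2.34). The enhancer genes PCOLCE and PCOLCE2 were 3.38-fold (2.76 to 4.16) and 3.003-fold (2.16 to 4.26) lower, and PCOLCE2 lost its call with the library total or with the length trend removed. CRTAP, LOXL2 and ITGA1 lost theirs with the library total, and LOX with the length trend removed. Altogether 3 of 7 measured genes of the list were higher and 2 lower, against 19.6% and 19.8% of all measured genes. Of the 3 that reached 5 CPM in both libraries 2 were higher and 1 lower, against 12.8% and 17.2% of all genes that did so.

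Of 5 measured cross-linking enzyme genes 2 were higher and 1 lower, against 19.6% and 19.8% of all measured genes. LOX reached 5 CPM in the NPC library only. Of the 4 that reached it in both libraries 1 was higher and 1 lower, against 12.8% and 17.2% of all genes that did so. The lysyl oxidase genes LOX and LOXL1 were 2.97-fold (2.27 to 3.97) and 3.23-fold (2.74 to 3.83) higher, and LOXL2 was 2.79-fold lower (2.49 to 3.15). PXDN, the peroxidase that cross-links type IV networks, had 273 CPM in the NPC and 277 CPM in the hESC library, a ratio of 0.986 (0.9504 to 1.022).

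Of 8 measured collagen receptor genes 4 were higher and 1 lower, against 19.6% and 19.8% of all measured genes. The filter was passed in the NPC library only by 3 of the 8, and of the 5 that passed it in both libraries 2 were higher and 1 lower. ADGRG1, also called GPR56, an adhesion receptor that binds type III collagen in the developing mouse cortex, had 5384 reads (198 CPM) in the NPC and 68 reads (3.91 CPM) in the hESC library. It was 50.2-fold higher (39.8 to 65.3). MRC2, an endocytic collagen receptor, was 9.37-fold higher (8.43 to 10.5), and the receptor kinase gene DDR2 13.5-fold higher (6.84 to 36.5). ITGA2 was higher as well, and ITGA1 was 2.62-fold lower (2.20 to 3.14). ITGB1, the shared beta chain of the collagen-binding integrins, had 605 CPM in the NPC and 611 CPM in the hESC library.

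**Figure D5:**
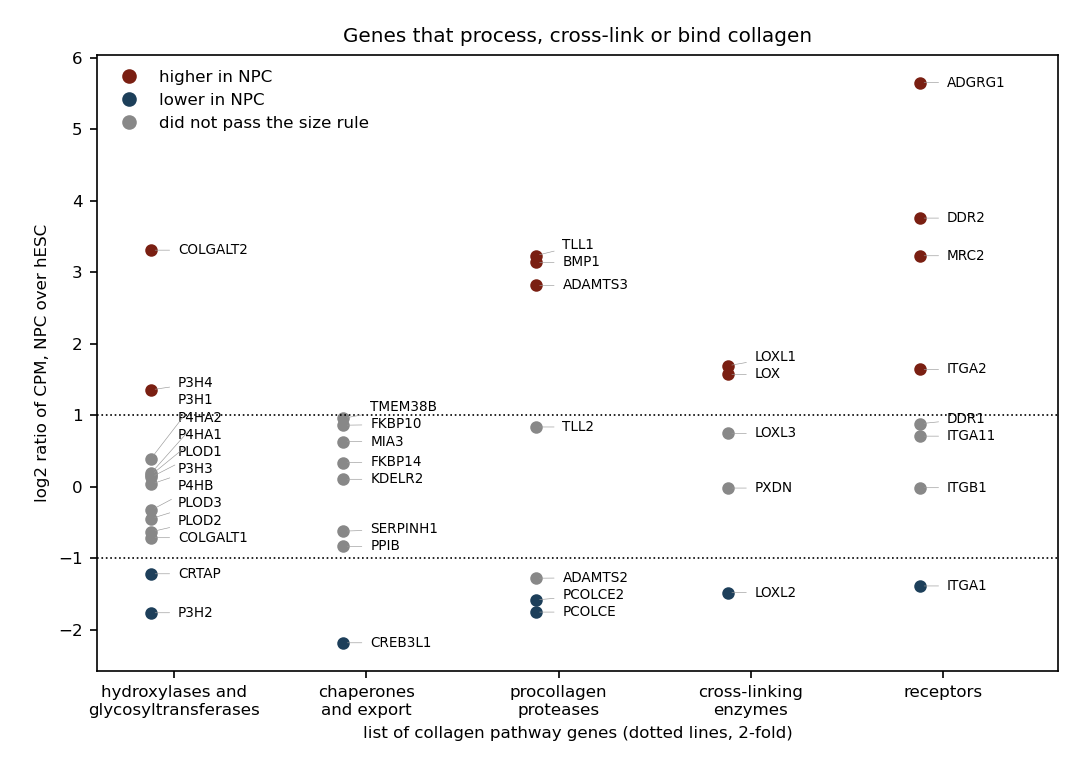
Log2 ratio of CPM, NPC over hESC, of 41 measured genes in lists of collagen processing, cross-linking and receptor genes (points, coloured by call; dotted lines mark 2-fold). ADGRG1 is the highest point at 5.65, and 23 of the 41 genes did not pass the size rule.

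Markers of other cell types moved with the collagen genes in part. Of 12 stroma and fibroblast markers 7 were measured, 6 of them higher and none lower, and the 5 below the filter included LUM. Over all measured genes 19.6% were higher and 19.8% lower. For DCN, PDGFRA, POSTN and PRRX1, at 5 CPM in the NPC library alone, higher was the only call open. The stroma markers at 5 CPM in both libraries numbered 3, with 2 higher and none lower. FBLN1 was the most abundant, at 272 CPM in the NPC and 161 CPM in the hESC library. DCN and LUM had 303 and 91 reads in the NPC and 4 and 1 in the hESC library. Also below the filter, TWIST1, FAP and TCF21 had 123, 80 and 26 reads in the NPC and 6, 0 and 7 in the hESC library. TWIST2 went the other way, with 13 reads in the NPC and 33 in the hESC library, a ratio of 0.258 (0.122 to 0.491). Of 8 neural progenitor markers 7 were measured, 5 of them higher, and all 6 pluripotency markers were lower. The filter was passed in the NPC library only by 2 of the progenitor markers, and in the hESC library only by 5 of the pluripotency markers. Of the 5 progenitor markers at 5 CPM in both libraries 3 were higher, and the 1 such pluripotency marker was lower. Among all genes at 5 CPM in both libraries 12.8% were higher and 17.2% lower. Cartilage markers summed to 6.95 CPM in the NPC and 215 CPM in the hESC library, with none of 2 measured markers higher and LECT1 at 2.50 CPM in the NPC and 197 CPM in the hESC library. Both measured cartilage markers reached 5 CPM in the hESC library only and could not have been called higher. ACAN, COMP, EPYC and UCMA had 7, 1, 0 and 0 reads in the NPC library, and MATN3, HAPLN1 and MATN1 had 50, 34 and 29. MATN1 had 8 reads in the hESC library, a ratio of 2.22 (1.03 to 5.86) below the filter. Endothelial and mural markers summed to 67.1 CPM in the NPC and 40.8 CPM in the hESC library, with 1 of 5 measured markers (ACTA2) higher and none lower. ACTA2 reached 5 CPM in the NPC library only, and none of the 3 markers that reached it in both libraries was called. In the NPC library PECAM1, CDH5 and VWF had 10, 9 and 8 reads, CLDN5 had 19, TEK had 154 and the mural gene RGS5 had 472. Neural crest markers summed to 86.3 CPM in the NPC and 129 CPM in the hESC library, with 2 of 5 measured markers (TFAP2A and TFAP2B) higher and 2 lower. TFAP2A and TFAP2B reached 5 CPM in the NPC library only, and of the 2 markers that reached it in both libraries 1 was lower. TFAP2A and TFAP2B had 425 and 603 reads in the NPC and 5 and 0 in the hESC library. FOXD3 and SOX10, both below the filter, had 0 and 21 reads in the NPC and 86 and 37 in the hESC library. The part of stromal cells, or of reads from mouse feeder RNA that matched human genes, in the collagen results was not tested.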

How the data were processed

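RNA was taken from 1 NPC and 1 hESC culture of H9. The authors deposited raw read counts per gene symbol, whole numbers not normalized. Per the submitters' processing notes, TopHat, edgeR and hg19 were used, and the tool that counted, the strand, the handling of reads with several matches and the annotation were not found in the labels. For the 286 symbols on several rows the row with most reads was kept, setting aside 0.107% of the NPC and 0.0878% of the hESC reads. No row lacked a gene name.

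TMM factors (edgeR 4.0.16, R 4.3.3) of 1.13 for NPC and 0.884 for hESC gave the effective library sizes. Point ratios had 0.5 added to each count. Intervals are exact (Clopper-Pearson on the NPC share of a gene's reads), at 95%. The code was tested on simulated counts. A count of 0 allows up to 0.110 CPM in the NPC and 0.173 CPM in the hESC library (3 reads). Without molecular identifiers, PCR copies are counted as reads. The labels name no batch. Any batch effect and the group effect cannot be told apart here.

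Transcript lengths are those of the longest GENCODE 29 transcript per symbol, found for all 44 collagen genes and 94.8% of measured genes. Start sequences are RefSeq's (GRCh38.p14), with 32 of 44 collagen genes in that table. Members and lists were chosen with earlier results of these data known. Each measured collagen gene is given, as are up to 3 higher and 3 lower genes of each pathway list, and other genes were named after their values were seen. Alternatives were the library total, DESeq2 1.42.0 and upper-quartile factors, other filters and size rules, summed rows, log2 of CPM + 1 and removal of the length trend (lowess in statsmodels 0.14.6, fraction 0.5). Python 3.11.15, numpy 2.4.6, pandas 2.3.3, scipy 1.17.1 and matplotlib 3.10.9 were used.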

Additional observations from a re-analysis of the deposited data

How the results depend on the processing

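No paired analysis was possible because each group had 1 library. Of the collagen genes, 9 were higher and 1 (COL14A1) lower under the main setting and all 11 alternatives, and none was called in both directions. The number of higher collagen genes ranged from 11 (filter of 20 CPM) to 19 (filter of 1 CPM, no filter, library total) around 16. The number of lower ones was 2 with the library total and with a filter of 20 CPM, 7 with a filter of 1 CPM or none, and 1 with a 4-fold bound, against 4. With the 4-fold bound 5 fibrillar genes were higher and 0 transmembrane genes lower. With the library total or a filter of 20 CPM 1 transmembrane gene was lower. Of the FACIT genes 2 were lower with a filter of 1 CPM or none, and 1 was higher with a filter of 20 CPM, where the median log2 ratio of the 3 left was -0.51. The cause was not tested, beyond the number of genes that each filter leaves. The library total moved the median of all measured genes from -0.09 to 0.31 and that of collagen genes from 1.27 to 1.77. Measured collagens had a median length of 6425 bases, against 3779 bases for all measured genes, and with the length trend removed 15 were higher, 4 lower and the median was 1.002.

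With coding length, chosen after seeing the data, the chain ratios moved but their point values stayed on their side of 1. In the hESC library the main intervals of COL4A2 to COL4A1 and of COL9A2 to COL9A1 included 1, so that these have no clear side. In the NPC library COL1A2 was 2.20 and COL3A1 1.57 times COL1A1, COL4A2 was 2.04 times COL4A1, COL6A2 and COL6A3 were 0.729 and 0.139 times COL6A1, and COL9A2 and COL9A3 were 5.67 and 1.24 times COL9A1. In the hESC library COL6A2 and COL6A3 were 0.751 and 0.0365 times COL6A1, and COL9A3 was 3.22 times COL9A1.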
